A study of Caenorhabditis elegans with 12 samples.

Results

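The salt response of Caenorhabditis elegans without the p38 kinase PMK-1 was read from 6 libraries of the 12 in the series, those whose labels name the pmk-1(km25) genotype. Of these, 3 came from animals held in 100 mM NaCl and 3 from animals of the same strain held in 100 mM KCl, and all genes were examined. All were synchronized day 1 adults that spent 4 h in the salt solution without OP50-1 bacteria, and RNA was taken from whole animals of a pooled sample. The remaining 6 libraries were wild-type N2 adults treated alike, again 3 per salt. They shared the fit and served to test whether the salt effect differed between genotypes. All 6 mutant libraries carry the same pmk-1 allele, so the salts are compared within 1 genotype. The labels number the samples of a group as biological replicates 1 to 3. The NaCl and KCl solutions differ in both cations, sodium and potassium, and the parts of the ions in any difference cannot be told apart.

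PMK-1 is a p38 mitogen-activated protein kinase. In C. elegans it is activated by the adaptor TIR-1 through the kinases NSY-1 and SEK-1, acts on transcription factors that include ATF-7 and SKN-1, and is best known for the defence of the intestine and epidermis against pathogens and for responses to oxidative and osmotic stress. The phosphatase VHP-1, the Tribbles-related protein NIPI-3 and the C/EBP-type factor CEBP-1 act around this cascade.

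The targeted gene was still counted. For pmk-1 itself the KCl libraries of the mutant held 21.3, 22.8 and 21.3 CPM (read counts scaled to library size with TMM) and the NaCl libraries 26.4, 22.6 and 21.9 CPM, against 33.6, 29.3 and 35.9 CPM in wild-type KCl and 24.16, 33.9 and 38.7 CPM in wild-type NaCl. The extent of the deletion is not given in the sources used here, so a gene-level count does not check the genotype label. Totals of the 6 libraries ran from 8931797 to 9730271 counts. Their TMM factors were 1.039, 1.133 and 1.013 in KCl and 0.9025, 0.930 and 0.923 in NaCl, without overlap. A lower factor raises the scaled values of a library, so small rises rest in part on this scaling. On a principal component analysis of 9604 genes, component 1 (66.2% of the variance) set both replicate 1 libraries, at -71.6 and -30.5, apart from the other 4, at 6.64 to 44.4. Component 2 (20.3%) ordered the libraries by salt, with KCl at -33.2 to -13.4 and NaCl at 7.17 to 27.6. Ribosomal RNA genes took 0.605%, 1.49% and 3.26% of the counts in KCl libraries 1, 2 and 3 and 3.52%, 4.32% and 4.997% in NaCl, without overlap. The count from a fit with that share as a covariate is therefore given beside gene groups where it differs by over 1.5 times. In pmk-1 the share follows the salt, whereas in wild type it overlapped between the salts (1.70%, 2.59% and 0.671% in KCl, 2.51%, 0.931% and 1.03% in NaCl). That fit spans all 12 libraries and separates salt and share only in part. A call lost in it cannot be assigned to either. Of the marker lists of cell types, sperm markers (73 tested, 0 called, 72 with a log2 above 0, summed level 6149, 2853 and 2616 CPM in KCl and 9484, 3913 and 3098 CPM in NaCl), oocyte and early embryo markers (14, 0 called), later embryo markers (13, 0 called, summed level 159, 238 and 254 CPM in KCl and 141, 223 and 218 CPM in NaCl), and markers of epidermis, body wall muscle, pharynx, neurons, germ line and coelomocytes gave no call. The lists of intestine and excretory cell markers gave 1 call each, act-5 and vha-8. The sums of sperm and later embryo markers overlapped between the salts, but by replicate number the sperm sum was higher in NaCl in all 3 pairs and the later embryo sum lower in all 3. When the mutant's 6 libraries were fitted without wild type and with the replicate block, which was added after seeing the data, 18 sperm markers rose and 2 later embryo markers fell, beside 6.31% and 2.44% (together 8.75%) of 12573 genes. The part of sperm and embryo RNA in the results was not tested.

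The comparison asks which genes respond to NaCl against KCl when PMK-1 is absent. Of 13353 genes tested, 311 rose (2.33% of those tested) and 51 fell (0.382%) in NaCl at an adjusted p under 0.05 in edgeR's quasi-likelihood test with Benjamini-Hochberg adjustment. Among the 362 genes (2.71%), 214 rises and 47 falls were at least a doubling or halving (log2 of 1 or more in size). The median log2 fold change was 1.47 for the rises and -1.60 for the falls, and it was -0.01 over all genes tested. At an unadjusted p under 0.05, 1180 genes (8.84%) were upward and 612 (4.58%) downward. Libraries of one salt lay wholly above those of the other for each of the 362, which is also so for 1306 genes (9.78%) upward and 847 genes (6.34%) downward among all tested. In bulk RNA of whole animals, fewer cells of a type and less RNA per cell cannot be told apart.

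How many genes were called moved with the fit. With the replicate number as a block 533 rose (3.99%) and 146 fell (1.09%, together 5.08%), with the rRNA share as a covariate 151 rose (1.13%) and 9 fell (0.0674%, together 1.2%), and without both replicate 1 libraries of each genotype 571 rose and 499 fell. The 6 pmk-1 libraries fitted alone gave 43 rises (0.342% of 12573 genes) and 5 falls (0.0398%, together 0.382%). Leaving out pmk-1 KCl 2 or 3 left 148 and 97 rises, and leaving out pmk-1 NaCl 1 or 2 left 188 and 159. There were 132 falls without pmk-1 KCl 1, 25 without KCl 2 and 15 without KCl 3, and 13 without pmk-1 NaCl 2 and 19 without NaCl 3. Of the 362 calls, 103 (93 rises and 10 falls) were kept in each of the 12 fits that left out 1 library. KCl 2 stands for the KCl library of replicate 2, and libraries named together were each left out alone. A gene named below without a remark on left-out libraries belongs to those 103, and for the others, save in the account of neighbouring genes, the libraries whose removal ended the call are given.

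**Figure D1:**
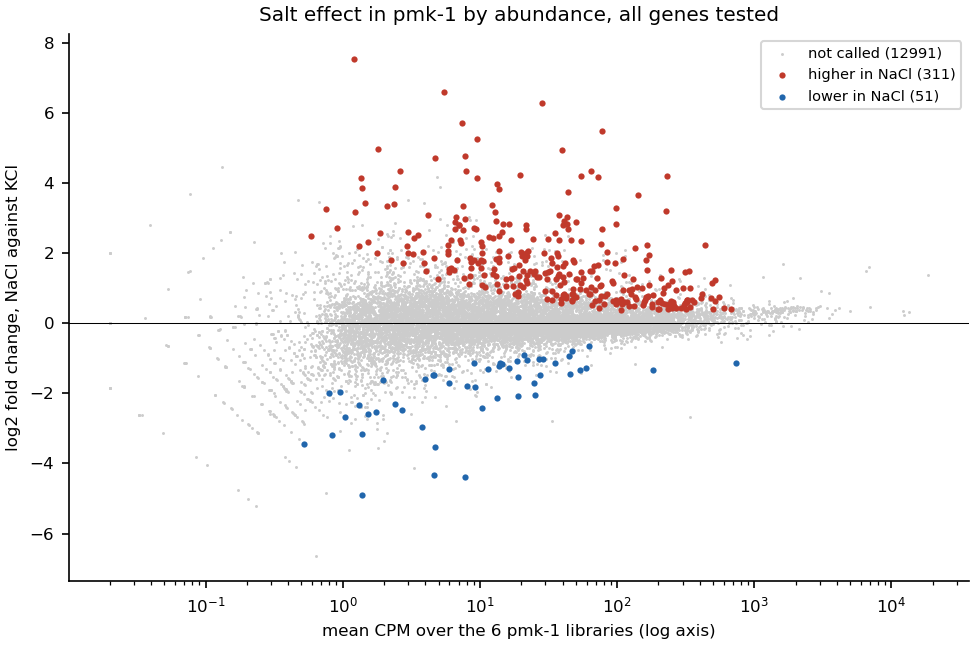
Log2 fold change of NaCl against KCl in pmk-1 animals for each of 13353 genes, against its mean CPM over the 6 pmk-1 libraries on a log axis. Red points are the 311 genes called higher in NaCl, blue points the 51 called lower and grey points the remaining 12991. The rises outnumber the falls, and most called genes lie above a mean of 5 CPM.

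The largest rises among genes with a name joined genes of transport, conjugation and regulation. Expression of cng-1, which encodes a subunit of a cyclic nucleotide-gated channel, was 2.07, 1.32 and 1.35 CPM in KCl libraries 1, 2 and 3 and 29.3, 17.4 and 28.5 CPM in NaCl. It was raised by a log2 of 3.98 ± 0.38 (standard error of the fit, n = 3 per group, adjusted p = 0.000291), and the groups lay far apart. The cytochrome P450 gene cyp-14A5 had 23.7, 24.18 and 23.5 CPM in KCl and 642, 331 and 337 CPM in NaCl (log2 4.20 ± 0.33, adjusted p = 0.000142). Its KCl libraries differed little, and NaCl 1 was the highest of the NaCl libraries. The tailless-family receptor gene nhr-67 went from 0.621, 0.282 and 0.725 CPM to 22.5, 11.997 and 10.8 CPM (log2 4.78 ± 0.48, adjusted p = 0.000353). For parg-2, a poly(ADP-ribose) glycohydrolase gene, the values were 4.14, 0.941 and 2.49 CPM in KCl and 119, 63.0 and 49.5 CPM in NaCl (log2 4.94 ± 0.55, adjusted p = 0.000647). In both of these, NaCl 1 was again the highest library, and the KCl libraries were all below the NaCl ones. The 12 largest named rises also held 4 glucuronosyltransferase genes, a phosphate transporter, a sodium pump relative, an ABC transporter and a heat shock gene, which are given with their groups.

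Genes known only by a sequence name stood among the largest rises too, and those given were chosen after their values were seen. Y58A7A.4 had 3.42, 2.73 and 3.94 CPM in KCl and 250.4, 97.9 and 107 CPM in NaCl (log2 5.49 ± 0.40, adjusted p = 0.000142). F43C1.7 rose from 0.311, 0.188 and 0.311 CPM to 25.8, 10.4 and 7.65 CPM (log2 5.70 ± 0.62, adjusted p = 0.000614). F14F9.3 stood at 1.66, 0.188 and 0.311 CPM against 112, 37.7 and 18.3 CPM (log2 6.28 ± 0.82, adjusted p = 0.00228), and its neighbour F14F9.4 at 12.9, 4.61 and 5.39 CPM against 215, 105 and 89.4 CPM (log2 4.16 ± 0.45, adjusted p = 0.000577). In all of them the KCl libraries were low, and NaCl 1 exceeded NaCl 2 and 3.

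Among the most abundant rises was acp-6, an acid phosphatase gene, with 397, 273 and 261 CPM in KCl and 566, 785 and 838 CPM in NaCl (log2 1.23 ± 0.19, adjusted p = 0.00503). Here NaCl 1 was the lowest of the NaCl libraries and KCl 1 the highest of the KCl libraries, and the groups still did not overlap. The phosphoethanolamine methyltransferase gene pmt-2, which serves phosphatidylcholine synthesis, had 404, 426 and 468 CPM in KCl and 596, 549 and 582 CPM in NaCl (log2 0.41 ± 0.09, adjusted p = 0.0355). The annexin gene nex-1 had 353, 266 and 299.9 CPM against 999, 576 and 448 CPM (log2 1.14 ± 0.25, adjusted p = 0.0372). The pmt-2 call was lost without any 1 of the 12 libraries (adjusted p 0.0555 to 0.141), and the nex-1 call was kept only without wild-type KCl 1, pmk-1 KCl 1 and NaCl 3 (otherwise adjusted p 0.0558 to 0.180). With the rRNA share in the fit, the adjusted p was 0.082 for acp-6, 0.289 for pmt-2 and 0.126 for nex-1. Some RNA-handling genes chosen after their values were seen rose in all 12 such fits. The Ro RNA-binding protein gene rop-1 had 155, 136 and 169 CPM in KCl and 931, 614 and 603 CPM in NaCl (log2 2.22 ± 0.18, adjusted p = 0.000142), and it overlaps akt-1 on the opposite strand. The RNase Z gene hoe-1, whose product trims tRNA ends, had 159, 135 and 156 CPM against 374, 303 and 278 CPM (log2 1.09 ± 0.12, adjusted p = 0.000622).

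The falls were fewer, and several encode enzymes. The dienelactone hydrolase-family gene dlhd-1 fell from 27.4, 6.11 and 11.3 CPM in KCl to 0.799, 0.679 and 0.607 CPM in NaCl (log2 -4.40 ± 0.70, adjusted p = 0.00694). KCl 1 was well above KCl 2 and 3, and all NaCl libraries were under 1 CPM. dhrs-4, a short-chain dehydrogenase gene, fell from 28.998, 28.4 and 26.7 CPM to 12.1, 10.5 and 6.31 CPM (log2 -1.54 ± 0.23, adjusted p = 0.00514). The dihydropyrimidinase gene dhp-2, for pyrimidine breakdown, fell from 13.7, 11.9 and 11.5 CPM to 4.91, 5.43 and 6.56 CPM (log2 -1.13 ± 0.20, adjusted p = 0.00966), and it overlaps rrp-1 on the opposite strand. The KCl libraries of these genes were close to one another, and each NaCl library was lower. The DEG/ENaC-type channel gene acd-2, chosen after its values were seen, had 9.32, 7.15 and 10.05 CPM in KCl and 0.114, 0.792 and 0.364 CPM in NaCl (log2 -4.34 ± 0.65, adjusted p = 0.00478). glc-1, a glutamate-gated chloride channel gene, had 57.9, 41.2 and 46.2 CPM against 16.21, 21.8 and 28.05 CPM (log2 -1.14 ± 0.21, adjusted p = 0.0141), but the glc-1 call was lost without pmk-1 KCl 3 and NaCl 2 (adjusted p = 0.0504 and 0.0541). The acd-2 call was kept with the rRNA share as a covariate, whereas dlhd-1, dhrs-4, dhp-2 and glc-1 then had an adjusted p of 0.0937, 0.0942, 0.121 and 0.0915.

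Noncoding RNAs were among the falls. tts-1, a long noncoding RNA that associates with ribosomes in long-lived mutants, had 915, 1081 and 1026 CPM in KCl and 553, 443 and 383 CPM in NaCl (log2 -1.13 ± 0.22, adjusted p = 0.0200). All NaCl libraries were below all KCl libraries, with NaCl 3 the lowest. rncs-1, a noncoding RNA of intestine and epidermis that rises on starvation, had 13.6, 21.9 and 22.2 CPM against 8.79, 7.81 and 8.01 CPM (log2 -1.23 ± 0.26, adjusted p = 0.0258). The tts-1 call was lost without pmk-1 KCl 2, KCl 3, NaCl 2 and NaCl 3 (adjusted p = 0.07, 0.0737, 0.0797 and 0.0673), and the rncs-1 call was lost without pmk-1 KCl 2, KCl 3, NaCl 2 and NaCl 3 (adjusted p = 0.0995, 0.119, 0.0928 and 0.0707). Of other falls with a name, the spp-25 call was lost without pmk-1 KCl 2, NaCl 1 and NaCl 3 (adjusted p = 0.0824, 0.055 and 0.0646), and the cyp-34A9 call was lost without pmk-1 NaCl 2 and NaCl 3 (adjusted p = 0.0811 and 0.0632). None of tts-1, rncs-1, spp-25 and cyp-34A9 was called with the rRNA share as a covariate (adjusted p = 0.082, 0.153, 0.2 and 0.221).

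**Figure D2:**
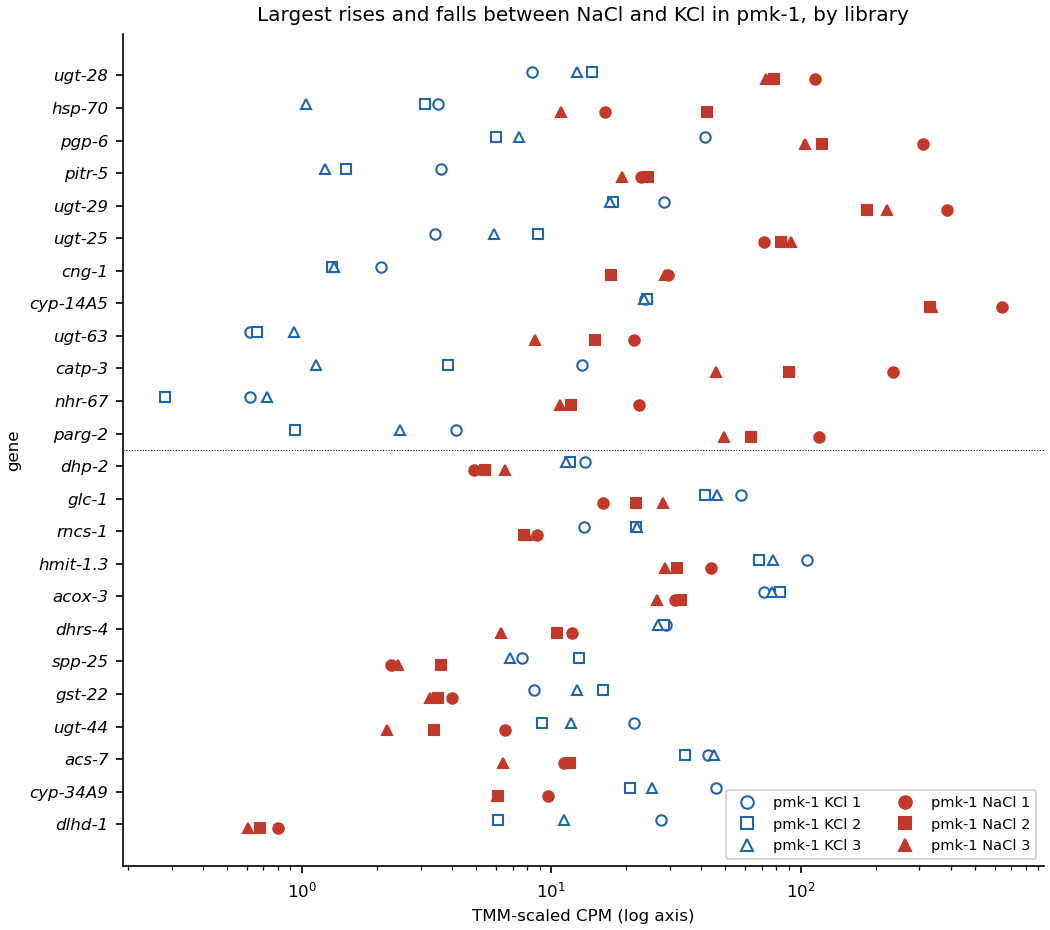
TMM-scaled CPM on a log axis in each pmk-1 library for the 12 largest rises and the 12 largest falls among called genes with a gene name, a mean of at least 5 CPM and groups that do not overlap. Open blue symbols are KCl libraries, filled red symbols NaCl libraries, and circle, square and triangle mark replicates 1, 2 and 3. In cyp-14A5 and dhrs-4 the KCl symbols nearly coincide, whereas catp-3 and pgp-6 spread widely within a salt.

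Genes were grouped into 59 lists by textbook function, of which some are described below. The lists were chosen with earlier results of these data known, so the share of a list that was called describes its members and is no test of the group. Lists with at least 3 called members included those of the vacuolar ATPase, UDP-glucuronosyltransferases, ABC transporters, P450s, the endoplasmic reticulum, amino acid metabolism and sugar and phosphate transport. Each count is to be read against the 2.33% of all tested genes that rose and the 0.382% that fell. At an unadjusted p under 0.05 in edgeR the shares of all genes are 8.84% and 4.58%, and for separate salts 9.78% and 6.34%. They are 3.99% and 1.09% under the replicate block and 1.13% and 0.0674% with the rRNA share. In the 6 pmk-1 libraries alone they are 0.342% and 0.0398%, or 6.31% and 2.44% with the block.

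**Figure D3:**
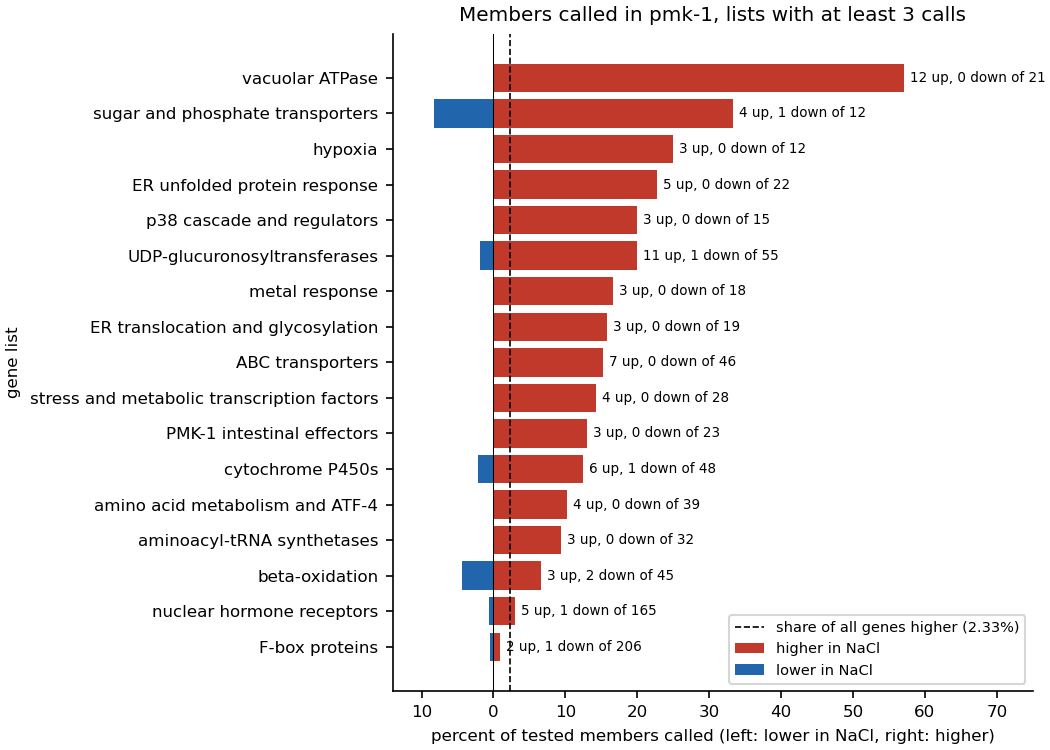
Share of tested members called higher (red, to the right) or lower (blue, to the left) in NaCl in pmk-1, in percent, for each gene list with at least 3 calls, with the counts written beside the bars. The dashed line marks the 2.33% of all tested genes called higher. The vacuolar ATPase has the longest bar of these lists, with 12 of 21 members.

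The vacuolar ATPase is the proton pump of lysosomes and other organelles and, in C. elegans, of the excretory cell and the apical face of the intestine. It couples ATP hydrolysis by a peripheral V1 sector to proton transport through a membrane V0 sector. Of 21 subunit and accessory genes tested, 12 rose, none fell and 9 did not pass. Their summed level was 4265, 3632 and 3556 CPM in the KCl libraries and 6075, 5194 and 5196 CPM in the NaCl libraries, so the groups did not overlap. The median log2 fold change of the 21 was 0.56 in pmk-1, against -0.01 over all genes, and 0.20 in wild type. None of the 21 passed the test of a difference in salt effect between genotypes.

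Subunits of both sectors rose. In the V1 sector, vha-12 (subunit B) had 226, 163 and 160.3 CPM in KCl and 424, 319 and 325 CPM in NaCl (log2 0.96 ± 0.16, adjusted p = 0.00942). vha-13 (the catalytic subunit A) had 427, 344 and 331 CPM and 665, 587 and 569 CPM (log2 0.72 ± 0.12, adjusted p = 0.00842), and vha-11 (subunit C) 129, 118 and 114 CPM and 224, 195 and 187 CPM (log2 0.75 ± 0.10, adjusted p = 0.00285). In all 3 subunits KCl 1 was the highest KCl library and NaCl 1 the highest NaCl library. vha-8 (subunit E), a marker of the excretory cell in these lists, had 283, 252 and 238 CPM in KCl and 429.7, 368 and 371 CPM in NaCl (log2 0.60 ± 0.10, adjusted p = 0.0104). The peripheral subunits vha-10 and vha-14 rose by a log2 of 0.58 ± 0.10 and 0.48 ± 0.09, and vha-15 (subunit H) by 0.67 ± 0.16. In the membrane sector the proteolipid genes vha-2 and vha-3 rose by a log2 of 0.44 ± 0.09 and 0.67 ± 0.14, and vha-4 and vha-16 by 0.42 ± 0.08 and 0.42 ± 0.10. The accessory subunit gene vha-19 rose by a log2 of 0.56 ± 0.10 and overlaps otub-4 on the opposite strand. The a-subunit genes of the membrane sector did not pass, with log2 values of 0.70 ± 0.23 for vha-5, 0.62 ± 0.33 for the intestinal vha-6, 0.13 ± 0.09 for unc-32 and -0.12 ± 0.14 for vha-7. Without pmk-1 KCl 2 or KCl 3, vha-11 alone stayed called, and the other 11 had adjusted p-values of 0.0636 to 0.242 and 0.0798 to 0.278. Without pmk-1 NaCl 1 or NaCl 2 there were 4 calls (0.0515 to 0.199 and 0.0523 to 0.171 for the 8 lost), and without NaCl 3 there were 6 (0.0547 to 0.136). The calls of vha-15 and vha-16 were also lost without wild-type KCl 2, KCl 3, NaCl 1, NaCl 2 or NaCl 3, that of vha-16 without wild-type KCl 1 and that of vha-3 without wild-type KCl 3 (0.058 to 0.0968 over these). The fit with the rRNA share called 8 of the 21, and the 6 pmk-1 libraries alone gave none, or 15 with the replicate block added.

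**Figure D4:**
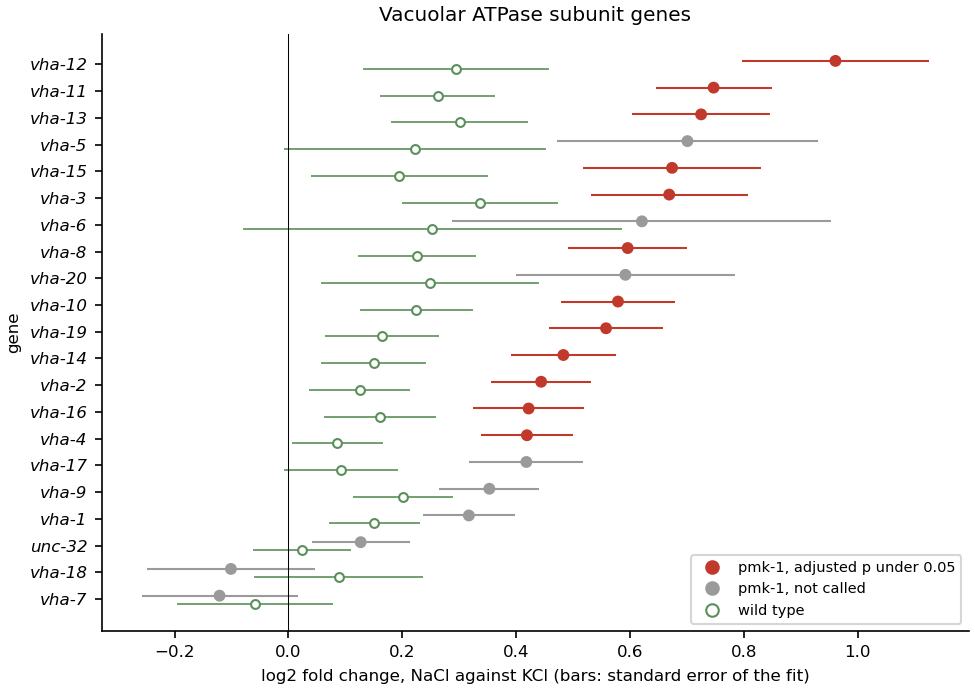
Log2 fold change of NaCl against KCl for the 21 vacuolar ATPase genes, with bars of 1 standard error of the fit. Filled circles are pmk-1 (red where the adjusted p is under 0.05, grey otherwise) and open green circles are wild type. In pmk-1, 19 of the 21 values lie above 0, with vha-12 the highest.

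Enzymes that make amino acids and polyamines were a further group. ATF-4 is the transcription factor of the integrated stress response, which answers amino acid shortage and endoplasmic reticulum stress, and in mammals asparagine synthetase is one of its targets. Of 39 genes of amino acid metabolism and ATF-4, 4 rose and none fell, with a median of 0.34 in pmk-1 and 0.00 in wild type. Of the 39, asns-2 alone passed the test of a difference in salt effect between genotypes. atf-4 itself had 59.2, 57.4 and 65.6 CPM in KCl and 115, 115 and 95.1 CPM in NaCl (log2 0.84 ± 0.11, adjusted p = 0.00186). The asparagine synthetase gene asns-2 had 47.4, 51.5 and 50.5 CPM in KCl and 229, 196 and 232 CPM in NaCl (log2 2.14 ± 0.17, adjusted p = 0.000142). Its KCl libraries lay within a few CPM of each other, and every NaCl library was far above them. The other asparagine synthetase gene, asns-1, had 3.62, 1.41 and 0.932 CPM and 4.91, 2.15 and 1.70 CPM (log2 0.55 ± 0.60, adjusted p = 0.747), and the kinase gene gcn-2, which senses uncharged tRNA, a log2 of -0.37 ± 0.13 (adjusted p = 0.2). With the replicate block 7 of the 39 rose, and the 6 pmk-1 libraries alone gave 2 rises.

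In tyrosine breakdown, the genes of the opening steps rose. tatn-1, the tyrosine aminotransferase, had 66.0, 80.1 and 70.6 CPM in KCl and 316, 238 and 206 CPM in NaCl (log2 1.81 ± 0.18, adjusted p = 0.000353). hpd-1, the 4-hydroxyphenylpyruvate dioxygenase of the next step, had 61.6, 45.3 and 38.4 CPM and 239, 131 and 152 CPM (log2 1.84 ± 0.26, adjusted p = 0.00347). In both genes the salts did not overlap and NaCl 1 was the highest library. Later steps did not pass: hgo-1 (homogentisate dioxygenase) had a log2 of 0.80 ± 0.19 (adjusted p = 0.0512), gst-42 (maleylacetoacetate isomerase) 0.25 ± 0.43 and fah-1 (fumarylacetoacetase) 0.53 ± 0.15. pah-1, the phenylalanine hydroxylase that feeds tyrosine into the route, had a log2 of -0.06 ± 0.30.

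Both enzymes that lead from glutamate to proline rose, and were chosen after their values were seen. alh-13, the pyrroline-5-carboxylate synthase, had 11.2, 6.49 and 12.84 CPM in KCl and 108, 44.0 and 61.1 CPM in NaCl (log2 2.81 ± 0.34, adjusted p = 0.00146). pycr-1, a pyrroline-5-carboxylate reductase, had 3.11, 3.86 and 5.18 CPM and 38.01, 21.6 and 26.6 CPM (log2 2.82 ± 0.36, adjusted p = 0.00174). All NaCl libraries exceeded all KCl libraries in both. The proline breakdown genes did not pass, with a log2 of -0.51 ± 0.28 for the proline dehydrogenase prdh-1 and 0.73 ± 0.18 for alh-6 (adjusted p = 0.470 and 0.0650).

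In polyamine synthesis, smd-1, the S-adenosylmethionine decarboxylase, had 43.8, 18.8 and 17.4 CPM in KCl and 168, 114 and 98.5 CPM in NaCl (log2 2.25 ± 0.34, adjusted p = 0.00478), and it overlaps F47G4.14 on the same strand. spds-1, the spermidine synthase, had 5.70, 6.30 and 7.25 CPM and 22.8, 18.6 and 14.9 CPM (log2 1.55 ± 0.22, adjusted p = 0.00337). These were also named after their values were seen, and in both the groups were separate. The ornithine decarboxylase gene odc-1 had 35.3, 44.2 and 26.8 CPM and 62.5, 57.6 and 32.1 CPM (log2 0.52 ± 0.26, adjusted p = 0.418), and its salts overlapped. Of 32 aminoacyl-tRNA synthetase genes 3 rose, sars-1 (log2 0.66 ± 0.13), nars-1 (0.54 ± 0.13) and pars-1 (0.52 ± 0.12), and the list's median was 0.18. Of these, the sars-1 call was lost without pmk-1 KCl 2, KCl 3, NaCl 1 and NaCl 2 (adjusted p = 0.0985, 0.0852, 0.0716 and 0.0541), the nars-1 call was kept only without wild-type KCl 3 (otherwise adjusted p 0.0575 to 0.213), and the pars-1 call was lost without any 1 of the 12 libraries (adjusted p 0.0514 to 0.219). None of the 32 was called in the fit with the rRNA share or in the 6 pmk-1 libraries alone.

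Genes of xenobiotic conjugation and export were among the rises. UDP-glucuronosyltransferases attach sugars to small lipophilic molecules, and ATP-binding cassette (ABC) transporters carry substrates across membranes. Of 55 glucuronosyltransferase genes, 11 rose and 1 fell, with a median of 0.56 in pmk-1 and 0.05 in wild type. None of the 55 passed the test of a difference in salt effect between genotypes. ugt-29 had 28.3, 17.7 and 17.2 CPM in KCl and 387, 185 and 223 CPM in NaCl (log2 3.65 ± 0.34, adjusted p = 0.000232). ugt-28 had 8.39, 14.6 and 12.64 CPM and 115, 78.3 and 72.4 CPM (log2 2.90 ± 0.26, adjusted p = 0.000232), and ugt-25 had 3.42, 8.84 and 5.90 CPM and 71.6, 83.3 and 91.3 CPM (log2 3.75 ± 0.36, adjusted p = 0.000300). The groups were apart in each of them. ugt-25 overlaps mlst-8 on the opposite strand. ugt-26 rose by a log2 of 2.84 ± 0.39, ugt-63 by 4.33 ± 0.58, ugt-66 by 2.82 ± 0.40 and ugt-13 by 2.50 ± 0.38. The 1 fall, ugt-44 (log2 -1.82 ± 0.42, adjusted p = 0.0435), was near the threshold, and the ugt-44 call was kept only without wild-type NaCl 3 and pmk-1 NaCl 1 (otherwise adjusted p 0.0509 to 0.174). For the whole group, without pmk-1 KCl 3 or NaCl 1 it held 7 rises. With the rRNA share as a covariate 7 of the 55 rose and none fell, and the 6 pmk-1 libraries alone gave 4 rises.

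Of 46 ABC transporter genes, 7 rose and none fell, with a median of 0.21. haf-7 had 9.11, 11.8 and 11.4 CPM in KCl and 116, 58.4 and 53.2 CPM in NaCl (log2 2.82 ± 0.28, adjusted p = 0.000353), and mrp-2, of the multidrug resistance-associated family, 15.6, 18.1 and 12.33 CPM and 73.4, 55.9 and 45.6 CPM (log2 1.92 ± 0.20, adjusted p = 0.000519). The peroxisomal-type transporter gene pmp-4 rose by a log2 of 1.47 ± 0.20 (adjusted p = 0.00282). haf-2 rose by a log2 of 1.095 ± 0.19. All NaCl libraries of these genes exceeded the KCl libraries. The P-glycoprotein gene pgp-6 had 41.3, 6.02 and 7.46 CPM in KCl and 309, 122.3 and 104.4 CPM in NaCl (log2 3.29 ± 0.67, adjusted p = 0.0236), with KCl 1 well above KCl 2 and 3. pgp-2, which serves lysosome-related gut granules, had 40.5, 33.4 and 35.2 CPM and 71.3, 71.2 and 71.3 CPM (log2 0.97 ± 0.18, adjusted p = 0.0140). Here the pgp-6 call was lost without pmk-1 KCl 2, KCl 3, NaCl 1 and NaCl 2 (adjusted p = 0.0927, 0.12, 0.0645 and 0.0507), the pgp-2 call was lost without pmk-1 KCl 2, KCl 3 and NaCl 2 (adjusted p = 0.084, 0.0943 and 0.0581), and the haf-2 call was lost without pmk-1 KCl 3 (adjusted p = 0.0852). Over all 46, without pmk-1 KCl 2 and KCl 3 the list held 4 and 3 rises, in that order. ABC transporter rises numbered 4 in the fit with the rRNA share, where pmp-4 had an adjusted p of 0.0673, and 4 in the 6 pmk-1 libraries alone.

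Of 48 P450 genes, which oxidize lipids, steroids and foreign compounds, 6 rose and 1 fell around a median of 0.02. Beside cyp-14A5, cyp-36A1 rose by a log2 of 2.21 ± 0.31 (adjusted p = 0.00346) and overlaps figo-1 on the opposite strand. cyp-43A1 rose by a log2 of 1.25 ± 0.21, cyp-13A2 by 1.51 ± 0.29 and cyp-33C8 by 1.11 ± 0.20, but the cyp-43A1 call was lost without pmk-1 KCl 3 (adjusted p = 0.0747), the cyp-13A2 call was lost without pmk-1 KCl 2, KCl 3 and NaCl 3 (adjusted p = 0.0824, 0.101 and 0.0785), and the cyp-33C8 call was lost without pmk-1 KCl 2, KCl 3 and NaCl 2 (adjusted p = 0.0511, 0.0936 and 0.0709). Over all 48, without pmk-1 KCl 2 and KCl 3 the list held 3 and 2 rises, in that order. P450 rises numbered 2 in the fit with the rRNA share and 1 in the 6 pmk-1 libraries alone, neither with a fall, and the replicate block gave 3 falls. Of 33 glutathione S-transferase genes 1 rose and 1 fell. gst-9 had a log2 of 2.01 ± 0.47, and the gst-9 call was kept only without wild-type KCl 1 (otherwise adjusted p 0.0549 to 0.194). gst-22 fell from 8.49, 16.09 and 12.7 CPM to 3.99, 3.51 and 3.28 CPM (log2 -1.79 ± 0.32, adjusted p = 0.0114), and the gst-22 call was lost without pmk-1 NaCl 2 (adjusted p = 0.0507). Glutathione S-transferases had 4 rises under the replicate block, no rise with the rRNA share and no call in the 6 pmk-1 libraries alone. In the metal response list, 3 of 18 entries rose. numr-1, induced by cadmium and other metals, rose by a log2 of 2.81 ± 0.43 (adjusted p = 0.00503) and is listed under a pair of identifiers with identical counts, so its value is that of both copies together, and the cadmium-responsive cdr-4 rose by a log2 of 2.03 ± 0.39, although the cdr-4 call was lost without pmk-1 KCl 2, KCl 3, NaCl 1 and NaCl 2 (adjusted p = 0.0946, 0.114, 0.0558 and 0.0642). In that list 1 entry fell in the fit with the rRNA share and 2 fell under the replicate block, and the 6 pmk-1 libraries alone gave no call.

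The unfolded protein response of the endoplasmic reticulum runs through the sensors IRE-1, PEK-1 and ATF-6, and XBP-1 is the transcription factor downstream of IRE-1. Of 22 genes of this response 5 rose and none fell, with a median of 0.28 and 0.00 in wild type. None of the 22 passed the test of a difference in salt effect between genotypes. xbp-1 had 202, 210.0 and 189.7 CPM in KCl and 433, 439 and 331 CPM in NaCl (log2 1 ± 0.11, adjusted p = 0.000777), with each NaCl library well above each KCl library. pek-1, the PERK kinase, had 66.8, 67.1 and 61.2 CPM and 102, 96.8 and 85.8 CPM (log2 0.55 ± 0.11, adjusted p = 0.0182). hsp-4, a BiP chaperone gene, had 251, 299 and 318 CPM and 414, 513 and 402 CPM (log2 0.61 ± 0.13, adjusted p = 0.0284). pdi-2, a protein disulfide isomerase, rose by a log2 of 0.74 ± 0.16 and dnj-7 by 0.77 ± 0.17. ire-1 and atf-6 had log2 values of -0.24 ± 0.16 and 0.20 ± 0.19, and the other BiP gene, hsp-3, 0.67 ± 0.18 (adjusted p = 0.0834). Apart from xbp-1 the calls depended on single libraries: the pek-1 call was lost without pmk-1 KCl 2, KCl 3, NaCl 1 and NaCl 2 (adjusted p = 0.0775, 0.143, 0.0645 and 0.112), the hsp-4 call was kept only without wild-type KCl 1, NaCl 3 and pmk-1 NaCl 3 (otherwise adjusted p 0.0511 to 0.180), the pdi-2 call was kept only without wild-type KCl 1, KCl 3, NaCl 1 and pmk-1 NaCl 3 (otherwise adjusted p 0.0531 to 0.138), and the dnj-7 call was kept only without wild-type KCl 3 and NaCl 1 (otherwise adjusted p 0.0538 to 0.164). With the rRNA share as a covariate 2 of the 22 were called, and none in the 6 pmk-1 libraries alone.

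Protein entry into the endoplasmic reticulum showed small rises. Of 19 translocation and glycosylation genes 3 rose, namely trap-1 (log2 0.66 ± 0.15), sec-61.B (0.62 ± 0.14) and sec-61.G (0.47 ± 0.11), which encode the translocon-associated protein alpha subunit and subunits of the Sec61 channel. Of these calls, the trap-1 call was kept only without wild-type KCl 1 and pmk-1 NaCl 1 (otherwise adjusted p 0.0621 to 0.171), the sec-61.B call was kept only without pmk-1 NaCl 1 (otherwise adjusted p 0.0717 to 0.202), and the sec-61.G call was kept only without pmk-1 NaCl 1 (otherwise adjusted p 0.0760 to 0.208). With the replicate block 6 of the 19 rose, and none with the rRNA share as a covariate or in the 6 pmk-1 libraries alone. Of 14 COPII and COPI coat genes none was called (1 at an unadjusted p under 0.05 in edgeR, none in DESeq2). Of 21 cytosolic heat shock genes 2 rose, hsp-70 and hsp-43. hsp-70 had 3.52, 3.10 and 1.04 CPM in KCl and 16.44, 42.2 and 10.9 CPM in NaCl (log2 3.18 ± 0.73, adjusted p = 0.0437), where NaCl 2 was far above the others, and the hsp-70 call was kept only without wild-type KCl 1, NaCl 1 and pmk-1 NaCl 3 (otherwise adjusted p 0.0512 to 0.191). hsp-43 had 77.8, 44.1 and 51.1 CPM and 549, 177 and 85.2 CPM (log2 2.23 ± 0.52, adjusted p = 0.0445), and the hsp-43 call was kept only without pmk-1 KCl 1 and NaCl 3 (otherwise adjusted p 0.0673 to 0.205). The list's median was 0.69, with 4 rises under the replicate block and none with the rRNA share as a covariate or in the 6 pmk-1 libraries alone.

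Genes around the missing kinase were examined next. Of 15 genes of the p38 cascade and its regulators 3 rose and none fell, with a median of 0.12. nipi-3 had 53.6, 56.1 and 56.6 CPM in KCl and 146, 125 and 114 CPM in NaCl (log2 1.21 ± 0.12, adjusted p = 0.000346). tir-1 had 22.4, 20.4 and 15.3 CPM and 74.3, 69.7 and 49.3 CPM (log2 1.73 ± 0.24, adjusted p = 0.00337). cebp-1 had 18.95, 18.1 and 10.4 CPM and 69.9, 49.0 and 36.1 CPM (log2 1.71 ± 0.27, adjusted p = 0.00638). All 3 had separate groups, stayed called with the rRNA share as a covariate, and had wild-type log2 values of 0.38, 0.12 and 1.04. The kinases between TIR-1 and PMK-1 did not pass, with 0.07 ± 0.22 for nsy-1 and 0.26 ± 0.23 for sek-1, nor did the parallel p38 genes pmk-2 (0.27 ± 0.26) and pmk-3 (0.80 ± 0.20, adjusted p = 0.0613). The phosphatase gene vhp-1 had a log2 of 0.90 ± 0.23 (adjusted p = 0.0684), atf-7 0.09 ± 0.10 and skn-1 0.05 ± 0.16. With the replicate block 5 of the 15 rose and 1 fell.

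Among 28 transcription factors of stress and metabolism 4 rose, cebp-1 and atf-4 as above, mxl-3 and pqm-1. mxl-3, a repressor of lysosomal lipase genes in fed animals, had 20.1, 41.9 and 37.2 CPM in KCl and 72.7, 114 and 94.0 CPM in NaCl (log2 1.5 ± 0.25, adjusted p = 0.00842). pqm-1, a zinc finger factor of stress and fat metabolism, had 24.03, 28.7 and 20.7 CPM and 58.6, 54.6 and 42.7 CPM (log2 1.08 ± 0.17, adjusted p = 0.00548). Both had all NaCl libraries above all KCl libraries. The list's median was 0.04. The mxl-3 call was lost with the rRNA share as a covariate (adjusted p = 0.173), and none of the 28 was called in the 6 pmk-1 libraries alone. Of 165 nuclear hormone receptors 5 rose and 1 fell around a median of -0.04. Beside nhr-67, given above, nhr-156 rose by a log2 of 1.104 ± 0.18 (adjusted p = 0.00847). The remaining calls moved with single libraries: the nhr-3 call was lost without wild-type KCl 3, pmk-1 KCl 3, NaCl 1 and NaCl 2 (adjusted p = 0.0504, 0.142, 0.0823 and 0.0813), the nhr-43 call was lost without wild-type KCl 3, NaCl 2, pmk-1 KCl 1, KCl 3, NaCl 2 and NaCl 3 (adjusted p = 0.0538, 0.0513, 0.0538, 0.137, 0.122 and 0.0799), the nhr-137 call was kept only without wild-type KCl 1, NaCl 1, NaCl 3, pmk-1 KCl 1 and NaCl 1 (otherwise adjusted p 0.0505 to 0.111), and the nhr-15 call was lost without any 1 of the 12 libraries (adjusted p 0.0649 to 0.156). Receptor calls numbered 2 rises in the fit with the rRNA share, where nhr-156 had an adjusted p of 0.129, and 1 rise in the 6 pmk-1 libraries alone, neither with a fall, and 2 fell under the replicate block. Of 11 JNK and KGB-1 pathway genes none was called (in edgeR an unadjusted p under 0.05 for 4 upward and 2 downward, 2 up in DESeq2), but 2 rose with the replicate block.

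Genes listed here as intestinal effectors of PMK-1 signalling were mostly low and few were called. Whether each listed gene depends on PMK-1 was not tested. The entries T24B8.5, C32H11.12, F08G5.6 and F35E12.5 had no match by name and are missing from the list. Of 23 tested, 3 rose: dod-24, irg-2 and lys-1. lys-1, a lysozyme gene, had 78.3, 89.1 and 80.8 CPM in KCl and 161, 148 and 172 CPM in NaCl (log2 0.96 ± 0.16, adjusted p = 0.00942). irg-2 had 3.83, 4.04 and 2.80 CPM and 32.5, 15.8 and 10.4 CPM (log2 2.46 ± 0.39, adjusted p = 0.00665). dod-24 had 0.104, 0.0941 and 0.311 CPM and 1.03, 1.13 and 0.850 CPM (log2 2.50 ± 0.38, adjusted p = 0.00503), near the limit of detection in KCl. The lys-1 call was lost without pmk-1 KCl 3 (adjusted p = 0.0686), and the irg-2 call was lost without pmk-1 KCl 3 (adjusted p = 0.0547). The lys-1 call was also lost with the rRNA share as a covariate (adjusted p = 0.183), and the 6 pmk-1 libraries alone gave 1 rise among the 23. The median of the 23 was 0.46, and 0.21 with 3 genes that had no count in 1 group set to a floor of 3 counts over that group. Of 28 epidermal antimicrobial peptide genes 1 rose, fipr-22, with 0.104, 0.282 and 0.104 CPM and 3.31, 3.62 and 0.850 CPM (log2 3.87 ± 0.64, adjusted p = 0.00842), and the fipr-22 call was lost without pmk-1 KCl 3 (adjusted p = 0.0634). Epidermal peptide genes had 2 rises under the replicate block and none with the rRNA share or in the 6 pmk-1 libraries alone. The abundant nlp-33 had a log2 of 1.09 ± 0.27 (adjusted p = 0.0592). None of 86 C-type lectin genes was called (in edgeR an unadjusted p under 0.05 for 9 upward and 1 downward, 1 up and 1 down in DESeq2), and 1 rose under the replicate block. In the intracellular pathogen response, a defence programme against microsporidia and viruses, cul-6 and skr-3 of a ubiquitin ligase rose by a log2 of 1.92 ± 0.36 and 1.45 ± 0.25 among 21 genes with a median of -0.35. However, the cul-6 call was lost without pmk-1 KCl 3 (adjusted p = 0.0974), and the skr-3 call was lost without pmk-1 KCl 2 and KCl 3 (adjusted p = 0.0643 and 0.061). None of these 21 was called with the rRNA share as a covariate or in the 6 pmk-1 libraries alone, and 1 also fell under the replicate block.

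Ion transport was looked at because the salts differ in their cation. Of 17 P-type ATPase and sodium pump genes 1 rose. catp-3, of the sodium pump alpha-subunit family, had 13.3, 3.86 and 1.14 CPM in KCl and 234, 89.5 and 46.0 CPM in NaCl (log2 4.34 ± 0.74, adjusted p = 0.00942), and the catp-3 call was lost without pmk-1 KCl 2 (adjusted p = 0.0655). Its 6 libraries were widely spread within each salt, with replicate 1 the highest in both. P-type ATPase rises numbered 2 under the replicate block. The main pump genes had small values: eat-6, the principal alpha subunit, had 896, 503 and 522 CPM and 904, 739 and 683 CPM (log2 0.28 ± 0.20, adjusted p = 0.616), and the beta subunits nkb-1 and nkb-3 log2 values of 0.28 ± 0.09 and 0.12 ± 0.38. Of 17 sodium-proton and sodium-calcium exchangers 1 rose. nhx-6 had counts of 0, 0 and 0 in KCl and 29, 28 and 6 in NaCl, at least 24.3-fold higher against a floor of 3 counts over the KCl group (adjusted p = 0.0276). The nhx-6 call was lost without wild-type NaCl 2, NaCl 3, pmk-1 KCl 2, KCl 3, NaCl 1 and NaCl 2 (adjusted p = 0.0563, 0.0563, 0.101, 0.111, 0.0633 and 0.0928). The intestinal exchanger gene nhx-2 had a log2 of 0.53 ± 0.28. Neither the P-type ATPases nor the exchangers had a call in the 6 pmk-1 libraries alone.

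None of 47 potassium channel genes was called (in edgeR an unadjusted p under 0.05 for 1 upward and 4 downward, 1 down in DESeq2), with a median of -0.17, and 1 rose and 1 fell under the replicate block. None of 12 cation-chloride cotransporter and chloride channel genes was called either (1 up at an unadjusted p under 0.05 in edgeR, none in DESeq2), and kcc-1, nkcc-1 and the regulating kinase gene wnk-1 had log2 values of -0.25 ± 0.15, 0.03 ± 0.14 and -0.18 ± 0.16. Of 24 aquaporin and osmolyte genes 1 rose and 1 fell. tps-2, a trehalose-6-phosphate synthase gene, had 153, 126 and 125 CPM in KCl and 274, 221 and 205 CPM in NaCl (log2 0.80 ± 0.16, adjusted p = 0.0193). hmit-1.3, a proton-coupled myo-inositol transporter gene, had 106, 68.3 and 77.9 CPM and 43.7, 32.03 and 28.7 CPM (log2 -1.27 ± 0.25, adjusted p = 0.0197). The tps-2 call was lost without pmk-1 KCl 2, KCl 3, NaCl 1 and NaCl 2 (adjusted p = 0.105, 0.127, 0.0797 and 0.0763), and the hmit-1.3 call was lost without pmk-1 KCl 3, NaCl 2 and NaCl 3 (adjusted p = 0.0607, 0.0835 and 0.0673). Neither was called with the rRNA share as a covariate (adjusted p = 0.149 and 0.192), and none of the 24 in the 6 pmk-1 libraries alone. tps-2 overlaps F19H8.2, and hmit-1.3 overlaps mrpl-35, on the opposite strand. gpdh-1, the glycerol-3-phosphate dehydrogenase gene that marks the response to high salt, had 1.55, 0.847 and 0.104 CPM in KCl and 10.3, 0.453 and 0.121 CPM in NaCl (log2 2.10 ± 1.19, adjusted p = 0.491). NaCl 1 was high and the other libraries were low, so the salts were not separated.

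Of 12 sugar and phosphate transporters 4 rose and 1 fell. pitr-5, a sodium-dependent phosphate transporter gene, had 3.62, 1.51 and 1.24 CPM in KCl and 22.9, 24.4 and 19.2 CPM in NaCl (log2 3.38 ± 0.47, adjusted p = 0.00321), with the groups well apart, and it overlaps F09G2.8 on the opposite strand. Its relative pitr-4 went the other way, with 4.76, 1.41 and 1.86 CPM and 0.228, 0 and 0 CPM (log2 -4.90 ± 0.90, adjusted p = 0.0145). The pitr-4 call was lost without pmk-1 NaCl 2 and NaCl 3 (adjusted p = 0.0723 and 0.0538). The sugar transporter genes swt-3 and swt-7 rose by a log2 of 1.31 ± 0.27 and 1.398 ± 0.30 and the sodium-coupled carboxylate transporter gene nac-3 by 1.16 ± 0.27, but the swt-3 call was lost without wild-type KCl 3, pmk-1 KCl 3, NaCl 2 and NaCl 3 (adjusted p = 0.0511, 0.146, 0.135 and 0.0629), the swt-7 call was lost without wild-type KCl 3, NaCl 2, pmk-1 KCl 2, KCl 3, NaCl 1 and NaCl 2 (adjusted p = 0.0555, 0.0502, 0.149, 0.169, 0.0967 and 0.0544), and the nac-3 call was kept only without wild-type KCl 3 and pmk-1 KCl 1 (otherwise adjusted p 0.0538 to 0.229). The fit with the rRNA share called none of the 12 (adjusted p = 0.0503 for pitr-5), and the 6 pmk-1 libraries alone gave 1 rise. The folate transporter gene folt-2, chosen after its values were seen, had 64.7, 66.8 and 56.04 CPM and 190.5, 117 and 177 CPM (log2 1.37 ± 0.17, adjusted p = 0.00172). None of 21 amino acid and peptide transporter genes was called (2 down at an unadjusted p under 0.05 in edgeR, 1 down in DESeq2), and 1 fell under the replicate block.

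Lipid metabolism went in both directions. Of 45 beta-oxidation genes 3 rose and 2 fell. acdh-2, of the acyl-CoA dehydrogenase family, had 19.1, 23.1 and 20.3 CPM in KCl and 146, 122.01 and 134 CPM in NaCl (log2 2.68 ± 0.21, adjusted p = 0.000142). acox-3, a peroxisomal acyl-CoA oxidase gene, had 71.5, 82.4 and 76.8 CPM and 31.4, 33.2 and 26.6 CPM (log2 -1.34 ± 0.21, adjusted p = 0.00671), and cpt-6, of the carnitine palmitoyltransferases, 25.4, 26.7 and 36.9 CPM and 13.9, 14.1 and 14.6 CPM (log2 -1.06 ± 0.18, adjusted p = 0.00937). The libraries of each salt lay close together in acdh-2 and acox-3, while KCl 3 stood above KCl 1 and 2 in cpt-6. In all 3 genes the salts were separate. The rises of acox-1.6 (1.75 ± 0.41) and kat-1 (0.65 ± 0.15) were near the threshold: the acox-1.6 call was kept only without wild-type NaCl 1 and pmk-1 KCl 1 (otherwise adjusted p 0.0570 to 0.222), and the kat-1 call was kept only without pmk-1 KCl 1 (otherwise adjusted p 0.0569 to 0.196). The fit with the rRNA share called acdh-2 alone of the 45 (adjusted p = 0.0505 for acox-3 and 0.0662 for cpt-6). The 6 pmk-1 libraries alone gave 1 rise and 1 fall, and the replicate block 5 rises and 4 falls. Among 20 acyl-CoA synthetases acs-7 fell from 42.6, 34.3 and 45.0 CPM to 11.3, 11.9 and 6.43 CPM (log2 -2.04 ± 0.26, adjusted p = 0.00205) and overlaps C01G6.9 on the opposite strand, and acs-20 rose by a log2 of 1.93 ± 0.33, although the acs-20 call was lost without pmk-1 KCl 2 and KCl 3 (adjusted p = 0.0564 and 0.071). Acyl-CoA synthetases had 2 falls under the replicate block and no rise in the 6 pmk-1 libraries alone.

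Of 21 fatty acid desaturase and elongase genes 2 rose. fat-6, a stearoyl-CoA desaturase that makes oleic acid, had 79.1, 154 and 152 CPM in KCl and 353, 475 and 277 CPM in NaCl (log2 1.52 ± 0.28, adjusted p = 0.0142), with KCl 1 below KCl 2 and 3. art-1, an enoyl reductase of elongation, had 109.7, 135 and 134 CPM and 152, 186 and 208 CPM (log2 0.53 ± 0.12, adjusted p = 0.0452). The fat-6 call was lost without pmk-1 KCl 3 and NaCl 2 (adjusted p = 0.0547 and 0.0709), and the art-1 call was kept only without pmk-1 NaCl 1 (otherwise adjusted p 0.0812 to 0.190). Neither desaturase-list call was made with the rRNA share as a covariate (adjusted p = 0.216 for fat-6), and none in the 6 pmk-1 libraries alone. Of 21 lipid binding and yolk protein genes, lbp-6 rose by a log2 of 0.82 ± 0.18, and the lbp-6 call was kept only without wild-type KCl 2, pmk-1 KCl 1 and NaCl 2 (otherwise adjusted p 0.0546 to 0.208). That list had 2 rises under the replicate block and none with the rRNA share or in the 6 pmk-1 libraries alone. None of 16 lipase and lipid droplet genes was called (3 down at an unadjusted p under 0.05 in edgeR, 1 down in DESeq2), and 1 fell under the replicate block.

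act-5, the actin of intestinal microvilli, had 208, 151 and 139 CPM in KCl and 676, 378 and 314 CPM in NaCl (log2 1.46 ± 0.25, adjusted p = 0.00887), and the act-5 call was lost without pmk-1 KCl 2 and KCl 3 (adjusted p = 0.0631 and 0.0736). It was the only call among 10 intestine markers, whose summed level was 28493, 20833 and 29942 CPM in KCl and 28868, 33635 and 33732 CPM in NaCl. The salts overlapped in that sum, and the 6 pmk-1 libraries alone called no intestine or excretory cell marker. Of 32 lysosomal and digestive protease genes the cathepsin B gene cpr-5 rose by a log2 of 1.22 ± 0.22 beside lys-1, and the cpr-5 call was lost without pmk-1 KCl 2, KCl 3, NaCl 1 and NaCl 2 (adjusted p = 0.0927, 0.11, 0.0598 and 0.0532). The fit with the rRNA share called none of the 32, the 6 pmk-1 libraries alone gave 1 rise, and the replicate block 3. Of 12 hypoxia genes 3 rose: the carbonic anhydrase gene cah-4 (0.84 ± 0.17), the prolyl hydroxylase gene egl-9 (0.83 ± 0.18) and cysl-2 (0.71 ± 0.17), while hif-1 had a log2 of -0.02 ± 0.16. For these, the cah-4 call was lost without wild-type KCl 3, pmk-1 KCl 2, KCl 3, NaCl 1 and NaCl 2 (adjusted p = 0.0554, 0.109, 0.169, 0.101 and 0.098), the egl-9 call was kept only without wild-type KCl 1, NaCl 1, NaCl 2 and pmk-1 NaCl 2 (otherwise adjusted p 0.0520 to 0.117), and the cysl-2 call was kept only without wild-type NaCl 1 and pmk-1 KCl 2 (otherwise adjusted p 0.0657 to 0.226). The fit with the rRNA share called 1 of the 12, and the 6 pmk-1 libraries alone none.

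Some large and abundant families gave no calls although their medians stood above 0. Of all genes tested, 9.78% had separate salts upward and 8.84% were up at an unadjusted p under 0.05 in edgeR. For 81 cytosolic ribosomal protein genes the median log2 was 0.36 in pmk-1 and 0.19 in wild type, 63 had separate salts, 31 were up at an unadjusted p under 0.05 in edgeR, and none was called there or in DESeq2. For 52 genes of oxidative phosphorylation the median was 0.28, 30 had separate salts, 22 were up at an unadjusted p under 0.05 in edgeR, and none was called in either tool, while 2 rose under the replicate block. For 119 cuticle collagens the median was 0.80, and 0.10 in wild type, but only 4 had separate salts upward and 2 downward. Their summed level overlapped between the salts, with 47932, 29052 and 27744 CPM in KCl and 57591, 36678 and 35857 CPM in NaCl. None was called in edgeR or DESeq2 (in edgeR an unadjusted p under 0.05 for 9 upward and 3 downward), and 12 rose under the replicate block, or 33 rose and 1 fell with that block in the 6 pmk-1 libraries alone. For 25 glycolysis and gluconeogenesis genes the median was 0.37, with none called in edgeR (9 up at an unadjusted p under 0.05), 3 under the replicate block and 3 in DESeq2. None of 33 proteasome genes was called or had an unadjusted p under 0.05 in edgeR, and DESeq2 called none. Of 206 F-box genes, which encode adaptors of ubiquitin ligases, 2 rose and 1 fell around a median of -0.71, with a wild-type median of -0.13. None of the ribosomal protein, collagen or F-box genes passed the test of a difference in salt effect between genotypes. fbxa-50 rose by a log2 of 4.34 ± 0.80 and fbxa-37 by 1.80 ± 0.33, but the fbxa-50 call was lost without pmk-1 KCl 2 and KCl 3 (adjusted p = 0.0927 and 0.0976), the fbxa-37 call was lost without pmk-1 KCl 3 (adjusted p = 0.0932), and the fbxb-88 call was kept only without wild-type KCl 1, KCl 3, NaCl 1 and pmk-1 KCl 1 (otherwise adjusted p 0.0531 to 0.122). Without pmk-1 KCl 1, 16 F-box genes fell, and with the replicate block 4 rose and 5 fell. F-box rises numbered 1 in the fit with the rRNA share and 1 in the 6 pmk-1 libraries alone, neither with a fall.

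Some called genes lay side by side in the genome. In the WBcel235 annotation, with 12953 tested protein-coding genes of which 355 were called, 22 runs of neighbouring tested genes with the same direction of change held 49 genes. They include the pair of numr-1 identifiers with identical counts, and smd-1 with F47G4.14, which overlap on the same strand. Members of such runs may share reads. The longest run held Y58A7A.3, Y58A7A.4, Y58A7A.5 and ugt-63, and all 4 rose. ugt-26, ugt-28 and ugt-25 formed a run of 3 rises, as did C49G7.12, C49G7.10 and irg-2. D1086.2, D1086.1 and D1086.12 were a run of falls. Pairs included F14F9.4 with F14F9.3, vha-11 with vha-3, hsp-4 with haf-2, nhr-43 with fat-6, smd-1 with F47G4.14, and ugt-53 with folt-2.

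Whether the salt effect differed between genotypes was tested as the difference of the salt effects, pmk-1 less wild type. For the 311 rises the median log2 in wild type was 0.38, and for the 51 falls -0.43, beside 1.47 and -1.60 in pmk-1. Both sets were chosen on the mutant's values, which by itself makes the mutant's medians the larger. The difference passed for 5 genes (0.0374% of those tested), each with the higher salt effect in pmk-1. This count was 40 with the replicate block, 108 in DESeq2, 97 without the replicate 1 libraries, and 2 with the rRNA share as a covariate. The genotypes also differed in marker scores, the mean log2 CPM of a list's genes, each centred over the 12 libraries. Sperm markers scored -3.77 to -0.501 in wild type and 1.69 to 3.53 in pmk-1. Later embryo markers scored 0.878 to 1.68 in wild type and -2.41 to 0.064 in pmk-1. The part of this imbalance in the genotype differences was not tested.

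acdh-2 had 19.1, 23.1 and 20.3 CPM in pmk-1 KCl and 146, 122.01 and 134 CPM in pmk-1 NaCl, against 95.6, 121 and 143 CPM in wild-type KCl and 71.1, 115 and 116 CPM in wild-type NaCl. The pmk-1 KCl libraries were the low ones, and the pmk-1 NaCl libraries lay among or above the wild-type values. The salt effects were 2.68 ± 0.21 in pmk-1 and -0.25 ± 0.19 in wild type, and differed by 2.93 ± 0.28 (adjusted p = 0.00455). asns-2 had the same arrangement, with 47.4, 51.5 and 50.5 CPM in pmk-1 KCl, 229, 196 and 232 CPM in pmk-1 NaCl, 179.8, 173 and 149 CPM in wild-type KCl and 198, 146 and 118 CPM in wild-type NaCl. Its effects were 2.14 ± 0.17 and -0.12 ± 0.16, with a difference of 2.25 ± 0.24 (adjusted p = 0.00569). Both differences were called in all 12 fits that left out 1 library, and with the rRNA share as a covariate their adjusted p was 0.021 for acdh-2 and 0.0557 for asns-2.

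T27D12.1 was arranged otherwise. It had 47.7, 49.5 and 37.4 CPM in pmk-1 KCl, 40.4, 46.0 and 51.3 CPM in wild-type KCl and 44.6, 44.3 and 54.3 CPM in wild-type NaCl, and only the pmk-1 NaCl libraries, at 172, 139.5 and 130.0 CPM, were high. The difference was 1.66 ± 0.22 (adjusted p = 0.0255), and it was kept only without wild-type KCl 1, pmk-1 KCl 1 and pmk-1 NaCl 1 among the 12 (adjusted p 0.025 to 0.168 over these fits). The neighbours Y58A7A.3 and Y58A7A.5 were lowest in pmk-1 KCl. The pmk-1 NaCl libraries were the highest for Y58A7A.3, whereas for Y58A7A.5 they overlapped those of wild-type NaCl. Y58A7A.3 had 49.4, 43.1 and 40.5 CPM and 622, 324 and 280.2 CPM in pmk-1, with 118, 147 and 144 CPM in wild-type KCl and 188, 223 and 196 CPM in wild-type NaCl (difference 2.64 ± 0.35, adjusted p = 0.0255). Y58A7A.5 had 7.35, 6.21 and 3.52 CPM and 138, 77.6 and 96.5 CPM in pmk-1, with 28.3, 44.5 and 40.2 CPM in wild-type KCl and 76.3, 98.7 and 66.9 CPM in wild-type NaCl (difference 3.09 ± 0.41, adjusted p = 0.0255). The Y58A7A.3 difference was kept only without wild-type KCl 1, pmk-1 KCl 1 or any pmk-1 NaCl library (adjusted p 0.00187 to 0.168), and that of Y58A7A.5 only without wild-type KCl 1, pmk-1 KCl 1, pmk-1 NaCl 1 or pmk-1 NaCl 2 (0.02 to 0.168).

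**Figure D5:**
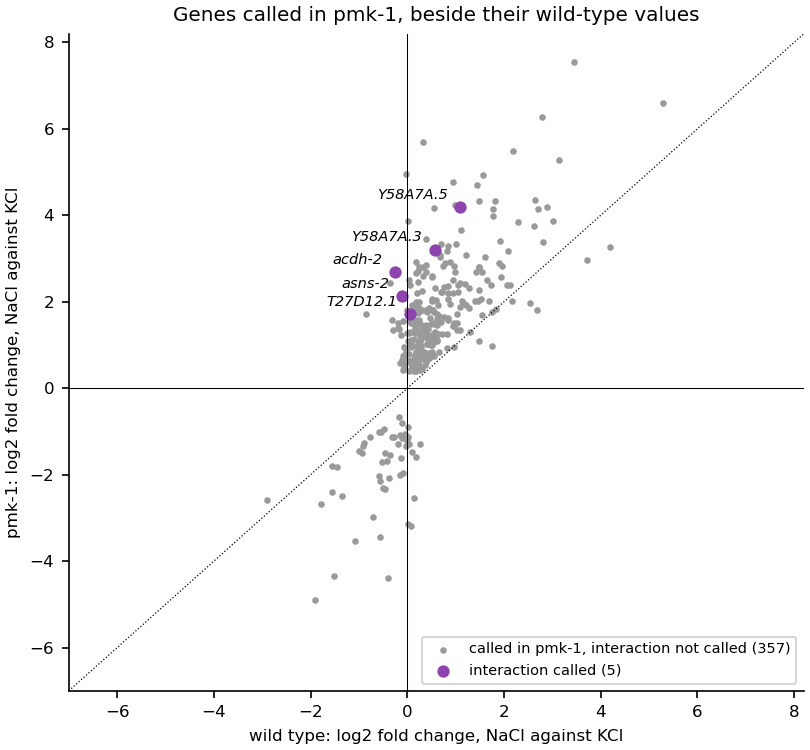
Log2 fold change of NaCl against KCl in pmk-1 (vertical axis) beside that in wild type (horizontal axis) for the 362 genes called in pmk-1. Purple points are the 5 genes whose salt effect differed between genotypes, grey points the other 357, and the dotted line marks equal effects. acdh-2, asns-2 and T27D12.1 lie near 0 in wild type, and the genes were chosen on the vertical axis.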

How the data were processed

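RNA of whole animals was sequenced, and the authors deposited 1 expected count per gene and library. Programs listed in the submitters' processing notes are STAR 2.7.1a, RSEM 1.3.3, DESeq2 1.40.2 and R 4.3.1. What each did, the genome build, the annotation and whether libraries were stranded: not given in the sources used here. Every deposited expected count was a whole number, so rounding changed none. Of 46904 genes listed, 46817 matched the WBcel235 annotation by identifier and 19509 had a count. Totals ran from 8931797 to 11445709 over the 12 libraries. For 64 genes with a near-identical copy, and for genes overlapped from the opposite strand, a value may hold reads of another gene.

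Genes kept by filterByExpr (13353) were TMM-scaled and entered edgeR's quasi-likelihood fit (edgeR 4.0.16, limma 3.58.1, R 4.3.3), with 12 libraries, 4 group means, 8 residual degrees of freedom and a biological coefficient of variation of 0.299. A call is an adjusted p below 0.05 after the Benjamini-Hochberg method. The value after ± is the log2 fold change divided by the square root of the F statistic. Libraries were called biological replicates by the labels, and p-values measure only the spread between them. On simulated counts of 13113 genes with 3 libraries per group, 50% of genes changed by a log2 of 1 and 90% of those changed by 2 were called, with 9 false calls. The changed genes all had a mean above 5 CPM. Counts were drawn for each library independently, without a shift shared by replicate 1 libraries.

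The members and the 59 gene lists were chosen with earlier results of these data known. In the lists, 22 entries had no match. Genes were named, among called genes with a mean of at least 5 CPM and groups that did not overlap, as the 12 largest rises and falls with a gene name, the 8 most abundant calls each way and the 8 largest interactions. Without those conditions, called members of a list, up to 6 by lowest adjusted p, were named, and where calls were few the most abundant members. Pathway members given with values that did not pass are list members, and other genes are stated to have been chosen after their values were seen.

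Alternatives were DESeq2 1.42.0, RLE scaling, no filter on low counts, a replicate block, the 6 pmk-1 libraries alone, leaving out the replicate 1 libraries, the rRNA share or an embryo marker score as a covariate, removal of 22 rRNA genes, a log2 of at least 1, and leaving out each library. The 6 libraries alone with a block were added after seeing the data. The deviations of same-numbered pmk-1 libraries from their group means correlated across genes at 0.741, 0.372 and 0.530 for numbers 1, 2 and 3. Each passed a rule of more than 0.1 for pairing. Between KCl 3 and NaCl 2 the value was 0.508, and between KCl 2 and NaCl 3 0.392. Only number 1 thus stood apart, and a pairing of numbers 2 and 3 was not shown. Replicate pairs differed by more than read sampling, with a chi-square per degree of freedom of 4.88 to 69.8.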

Additional observations from a re-analysis of the deposited data

Results flagged for a closer look

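For 5 genes the salt effect of pmk-1 and wild-type animals differed in edgeR's test of the interaction. The difference was a log2 of 2.93 for acdh-2, 2.25 for asns-2, 1.66 for T27D12.1, 2.64 for Y58A7A.3 and 3.09 for Y58A7A.5, each with the larger effect in pmk-1. Over the 12 fits that left out 1 library it was called in 12 for acdh-2 and 12 for asns-2, with log2 values of 2.73 to 3.07 and 2.09 to 2.47. It was called in 3 for T27D12.1 (1.46 to 1.76), 5 for Y58A7A.3 (2.13 to 2.80) and 4 for Y58A7A.5 (2.76 to 3.31). With the replicate block all 5 had an adjusted p under 0.05, the highest being 0.0167 for T27D12.1.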

How the results depend on the processing

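The 311 rises, 51 falls and 5 differences between genotypes depended on the fit. With the replicate block there were 533, 146 and 40, and all 362 calls were made again in the same direction. By the correlations between libraries, a pairing by number was shown for number 1 only. DESeq2 gave 506, 150 and 108. Leaving out the replicate 1 libraries gave 571, 499 and 97. The rRNA share as a covariate gave 151, 9 and 2, and 132 of the 362 kept their call. The embryo marker score as a covariate gave 139 falls and 54 differences. Without a filter on low counts there were 19 differences. The 6 pmk-1 libraries alone gave 43 rises and 5 falls, and with the replicate block 793 and 307, which was added after seeing the data. The causes of these shifts were not tested. Over the 12 fits that left out 1 library, rises ran from 97 to 418, falls from 13 to 132 and differences from 2 to 20. Rises moved by over 1.5 times without pmk-1 KCl 2, KCl 3, NaCl 1 or NaCl 2 (148, 97, 188 and 159). Falls did so in wild type without KCl 2 (33) or NaCl 2 (32), and in the mutant without KCl 1 (132), KCl 2 (25), KCl 3 (15), NaCl 2 (13) or NaCl 3 (19). Differences between genotypes did so without wild-type KCl 2 or 3 or any wild-type NaCl library (2 each), and in the mutant without KCl 1 (20), KCl 2 (3), KCl 3 (2) or NaCl 1 (15). RLE scaling, removal of rRNA genes and a log2 of at least 1 moved none of the 3 counts by over 1.5 times. Among single genes and lists, 4571 values stayed the same, 639 lost a call, 36 gained one and 62 counts of list members moved by over 1.5 times. For a gene, staying the same means an unchanged call, and the sign of an uncalled gene could differ. For a list it means a count within 1.5 times. The signs of the pharyngeal myosin genes changed without the replicate 1 libraries, with myo-2 at 1.81 (adjusted p = 0.0126) and myo-1 at 1.64 (0.0243) against -0.50 and -0.31, neither called before. RLE scaling shifted the median log2 over all genes by -0.032. By the simulated counts, a gene above 5 CPM changed by a log2 of 1 had an even chance of a call at this depth and number of libraries. The simulation held no shift shared by replicate 1 libraries, and lower genes were not changed in it.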

Other observations

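Some genes of branched-chain amino acid breakdown, chosen after their values were seen, rose in pmk-1, and others did not pass. The branched-chain keto acid dehydrogenase commits leucine, isoleucine and valine to breakdown. Its subunit gene bckd-1A had 104.2, 88.0 and 88.4 CPM in KCl and 137, 139.7 and 148 CPM in NaCl (log2 0.60 ± 0.10, adjusted p = 0.00887), bckd-1B had 94.7, 87.3 and 81.5 CPM and 131, 128 and 128 CPM (log2 0.55 ± 0.09, adjusted p = 0.00689), and the core subunit gene dbt-1 had 107, 97.6 and 101 CPM and 149, 138 and 145 CPM (log2 0.50 ± 0.10, adjusted p = 0.0174). All NaCl libraries exceeded all KCl libraries in the 3 genes. The bckd-1A call was lost without pmk-1 KCl 2, KCl 3, NaCl 2 and NaCl 3 (adjusted p = 0.0661, 0.0888, 0.0581 and 0.055). The bckd-1B call was lost without pmk-1 KCl 3 and NaCl 2 (adjusted p = 0.0723 and 0.0507). The dbt-1 call was lost without pmk-1 KCl 2, KCl 3, NaCl 1, NaCl 2 and NaCl 3 (adjusted p = 0.115, 0.133, 0.0709, 0.0811 and 0.0844). None of the 3 was called with the rRNA share as a covariate (adjusted p = 0.112, 0.0593 and 0.0999). The branched-chain aminotransferase gene bcat-1 had a log2 of 0.41 ± 0.19 (adjusted p = 0.362) and dld-1, which encodes the shared dihydrolipoamide dehydrogenase, 0.42 ± 0.11 (adjusted p = 0.0869).

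In the vitamin B12-independent route of propionate breakdown, hphd-1, a hydroxyacid-oxoacid transhydrogenase gene, had 299, 307 and 286 CPM in KCl and 609, 448 and 543 CPM in NaCl (log2 0.84 ± 0.13, adjusted p = 0.00496), and its call was kept in each of the 12 fits that left out 1 library. hach-1, a hydroxypropionyl-CoA hydrolase gene, had 414, 408 and 402 CPM and 710.3, 546 and 634 CPM (log2 0.63 ± 0.12, adjusted p = 0.0182). The hach-1 call was lost without pmk-1 KCl 2, KCl 3, NaCl 1 and NaCl 3 (adjusted p = 0.089, 0.123, 0.0871 and 0.0837). In the fit with the rRNA share, neither hphd-1 nor hach-1 was called (adjusted p = 0.0638 and 0.149). The opening enzyme gene of that route, acdh-1, had a log2 of 0.15 ± 0.15 (adjusted p = 0.731), and ech-6 and alh-8 had 0.61 ± 0.17 and 0.51 ± 0.17 (adjusted p = 0.0923 and 0.181).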
